A study of Arabidopsis thaliana with 20 samples.

Results

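The chloroplast NADH dehydrogenase-like complex (NDH) was represented on these arrays by 3 genes chosen by name: the subunits NDHS (AT4G23890) and NDHN (AT5G58260) and the assembly factor CRR41 (AT1G51100). Each was the sole annotated gene of 1 feature, so the 3 genes were 3 of the 692 features with exactly 1 gene and 3 of 3439 features in all. All 3 had a value above 0 on every array and were among the 3287 features tested. Total RNA of Arabidopsis thaliana, ecotype Wassilevskija, was hybridised to 10 arrays for the hcf145 group, described in the labels as a mutant with a defect in assembling photosystem I, and to 10 arrays for the wild-type group (WT). The labels give no tissue, age or growth condition, and nothing in them ties arrays to separate plants. The p-values below therefore measure spread between arrays, or between averages of adjacent arrays, which may be technical.

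The NDH complex lies in the thylakoid membrane, is related to respiratory complex I, and passes electrons from ferredoxin to plastoquinone. It takes part in cyclic electron flow around photosystem I, to which it is attached, and in chlororespiration. Its membrane core is encoded in the plastid, while NDHS, NDHN and CRR41 are nuclear genes whose products are imported. Mutants without the complex lack the brief rise in chlorophyll fluorescence after the light is switched off, which is the source of the name chlororespiratory reduction (CRR).

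Adjacent array numbers (1 with 2, 3 with 4, and so on) shared their deviations: for 20 of 20 arrays the closest array of the same group was the adjacent one, and the consensus correlation was 0.661. Each group was therefore treated as 5 averages of adjacent arrays. Column sums ran from 3319 to 3640, and the number of arrays limits the precision of every value. Over all features the median log2 difference (hcf145 minus WT) was -0.32 as deposited and -0.06 after quantile normalisation, so changes are given on the normalised scale. The titles name hcf145 while the source names of the same samples give gun5. The 1 feature annotated with the mutated gene HCF145 (AT5G08720) was also annotated with AT4G01650, and the gun5 locus (AT5G13630) had no annotated feature, so neither name could be checked. That shared feature had intensities of 4.09 to 7.65 (median 6.03) in hcf145 and of 1.42 to 3.64 (median 1.91) in WT. Its signal cannot be assigned to either gene.

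None of the 3 NDH genes changed past the threshold in hcf145. In limma on the averages, 0 of 3 had an adjusted p under 0.05, where 7.39% of all features did. Also at an unadjusted p under 0.05 there were 0 of 3, and the exact permutation test gave 0 of 3. For these unadjusted counts no share over all features is given here. In limma on the averages, 36.3% of all features had a smaller p than CRR41. With all 20 arrays counted separately, which makes p-values too small, 0 of 3 had an adjusted p under 0.05, where 29.1% of all features did. There 1 of 3 (CRR41) had an unadjusted p under 0.05, as did at least those 29.1% of all features. The log2 fold changes were ordered NDHS at -0.02, NDHN at -0.26 and CRR41 at -0.62, beside a median of -0.06 over all features tested. In bulk RNA such as this, fewer cells that express a gene and less of its RNA per cell cannot be told apart.

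**Figure D1:**
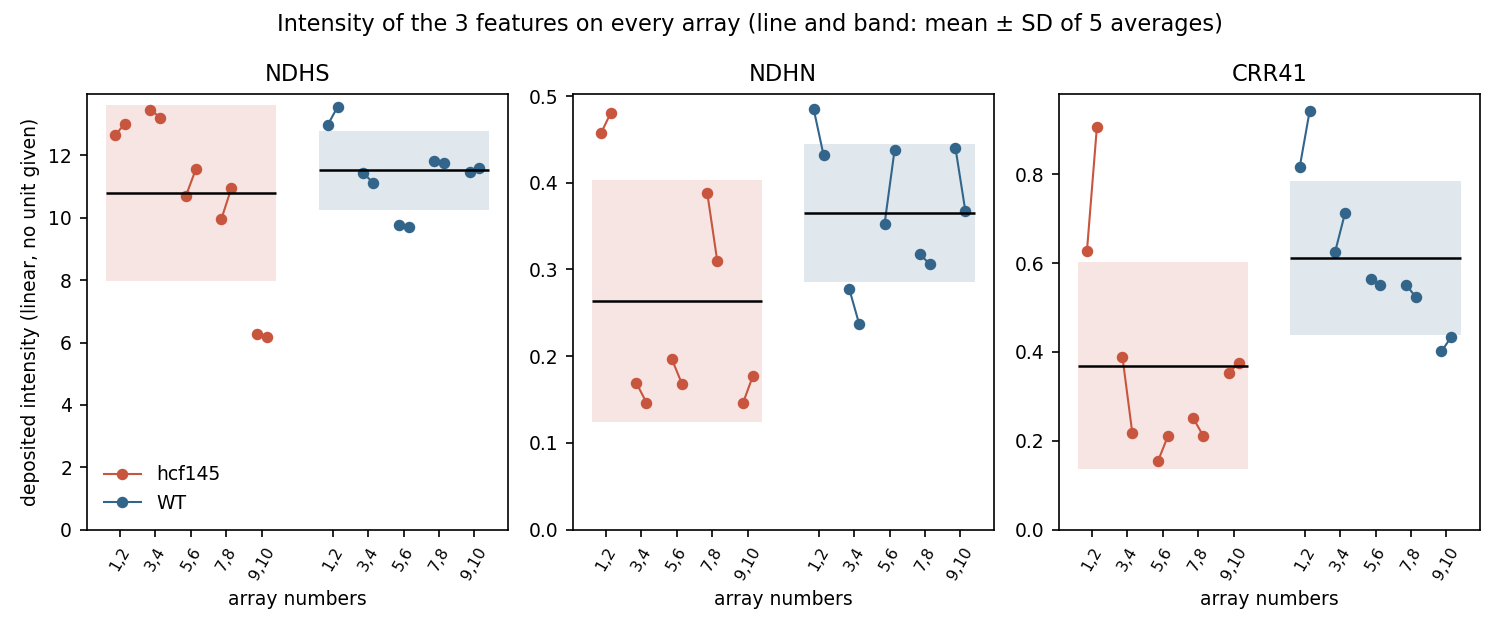
Deposited intensity (vertical axis, linear, unit not given) of NDHS, NDHN and CRR41 on each of 10 hcf145 and 10 WT arrays. Lines join adjacent arrays, and the black line and band are the mean and SD of 5 averages. hcf145 arrays 9 and 10 stand low for NDHS, and 8 of 10 hcf145 arrays lie below the lowest WT array for CRR41.

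NDHS is a peripheral subunit on the stromal side, also known as CRR31, that forms part of the site where ferredoxin docks. Its averages were 12.8, 13.3, 11.1, 10.5 and 6.22 in hcf145 and 13.3, 11.3, 9.74, 11.8 and 11.5 in WT. The groups overlapped throughout, and hcf145 arrays 9 and 10, at 6.27 and 6.17, were the 2 hcf145 arrays that lay below the lowest WT array at 9.69. The mean was 10.8 ± 2.82 in hcf145 and 11.5 ± 1.26 in WT (SD, n = 5 averages each). The log2 fold change was -0.02 ± 0.24 (SE, limma adjusted p = 0.955), and the exact two-sided permutation p over 252 arrangements was 0.944.

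The 95% interval of the NDHS difference ran from -0.55 to 0.50 on the log2 scale, that is from 0.685-fold to 1.41-fold of the WT level, so a change larger than this in either direction lay outside it. Without arrays 9 and 10 of both groups the NDHS difference was 0.12 (limma adjusted p = 0.668). It was also positive with arrays centred on their medians, at 0.16, and negative in the values as deposited, at -0.14, so the data give NDHS no settled direction. The feature was brighter than 99.0% of features in both hcf145 and WT, a rank that describes the strength of its signal and not its transcript level against other genes. The other 2 features were much dimmer. NDHN was brighter than 36.5% of features in hcf145 and 40.4% in WT, and CRR41 than 50.3% in hcf145 and 62.3% in WT. Adjacent arrays differed by a median of 0.03 on the normalised log2 scale for NDHS.

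NDHN is a nuclear-encoded subunit of the stromal arm (subcomplex A), which carries the iron-sulphur centres that lead electrons to plastoquinone. Its averages were 0.469, 0.158, 0.182, 0.349 and 0.161 in hcf145 and 0.458, 0.258, 0.395, 0.312 and 0.403 in WT. The hcf145 averages lay in 2 ranges: arrays 1, 2, 7 and 8 were within the WT range, while the 6 others lay below the lowest WT array at 0.238. Of all features with 20 values, 23.2% had at least 6 hcf145 arrays below the lowest WT array in the deposited values. The same share, 23.2% of the features with 10 averages, had at least 3 of 5 normalised hcf145 averages below every WT average, as NDHN did.

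The NDHN mean was 0.264 ± 0.139 in hcf145 and 0.365 ± 0.0797 in WT (SD, n = 5 averages each). The log2 fold change was -0.26 ± 0.33 (SE, limma adjusted p = 0.643), with an exact permutation p of 0.452. Its 95% interval, -0.97 to 0.46, corresponds to 0.512-fold to 1.37-fold of WT. Without arrays 9 and 10 of both groups the normalised difference was 0.0128 (limma adjusted p = 0.980). In the values as deposited it was -0.59 (limma adjusted p = 0.257), and -0.41 (limma adjusted p = 0.450) without these arrays. The difference left without arrays 9 and 10 therefore depended on the scaling.

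CRR41 is a stromal protein needed to assemble subcomplex A, the part of NDH to which NDHN belongs, and is not a subunit of the finished complex. Its averages were 0.767, 0.303, 0.182, 0.231 and 0.364 in hcf145 and 0.879, 0.669, 0.557, 0.537 and 0.418 in WT. The average of hcf145 arrays 1 and 2 stood inside the WT range, and the other 4 hcf145 averages lay below every WT average. After normalisation 4 of 5 hcf145 averages again lay below every WT average, as at least 4 of 5 did for 13.7% of features. By single arrays, 8 of 10 hcf145 arrays were below the lowest WT array as deposited, where 11.6% of features had at least 8, and 7 of 10 after normalisation, where 10.5% had at least 7. These counts were made after the values had been seen and are a description.

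The CRR41 mean was 0.369 ± 0.233 in hcf145 and 0.612 ± 0.174 in WT (SD, n = 5 averages each). The log2 fold change was -0.62 ± 0.35 (SE, limma adjusted p = 0.282), with an exact permutation p of 0.143, where 0.00794 is the smallest p that 5 against 5 can give. The 95% interval ran from -1.37 to 0.14, or from 0.386-fold to 1.10-fold of WT. Of all features tested, 18.3% had a lower log2 fold change than CRR41. With 20 arrays counted separately its adjusted p was 0.0732, and with adjacent arrays as a random block it was 0.202. The size depended on hcf145 arrays 1 and 2: without that pair the log2 fold change was -0.90 (limma adjusted p = 0.0715), and without hcf145 arrays 5 and 6 it was -0.41 (limma adjusted p = 0.496).

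All 3 genes varied more between the hcf145 averages than between the WT averages. On the normalised log2 scale the SD over averages was 0.42 in hcf145 and 0.15 in WT for NDHS, 0.62 in hcf145 and 0.42 in WT for NDHN, and 0.77 in hcf145 and 0.29 in WT for CRR41. These are SD ratios of 2.77, 1.48 and 2.65. Over all 3131 features with 10 averages the median ratio was 1.21, and 61.4% of features were wider in hcf145. Ratios larger than that of NDHS were found in 10.5% of features, larger than that of NDHN in 36.3% and larger than that of CRR41 in 11.4%. The arrays that set the spread were not the same: arrays 9 and 10 stood low for NDHS, while arrays 1 and 2 stood high for CRR41 and arrays 1, 2, 7 and 8 stood high for NDHN. For NDHS the wider spread rested on that 1 average. The other hcf145 averages lay between 3.51 and 3.80, and the WT averages between 3.34 and 3.71. Adjacent arrays differed by a median of 0.22 for NDHN and 0.22 for CRR41 on that scale, and the widest gap, 0.82, was that of CRR41 between hcf145 arrays 3 and 4.

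A single scaling factor per array cancels in ratios between the 3 features within an array, so these ratios were compared on the deposited values. Background treatment, or scaling that varies with intensity, does not cancel in them, and neither is described for the deposited values. The log2 ratio of CRR41 over NDHS was -5.03 ± 0.88 in hcf145 and -4.27 ± 0.35 in WT (SD, n = 5 averages each), a difference of -0.76 ± 0.42 (SE, exact permutation p = 0.119). The ratio of NDHN over NDHS was -5.46 ± 0.69 in hcf145 and -5.01 ± 0.33 in WT (SD), a difference of -0.46 ± 0.34 (SE, exact permutation p = 0.230). The ratio of CRR41 over NDHN was 0.43 ± 0.72 in hcf145 and 0.73 ± 0.49 in WT (SD), a difference of -0.30 ± 0.39 (SE, exact permutation p = 0.460). With Benjamini-Hochberg adjustment over these 3 ratios the p-values were 0.345, 0.345 and 0.460. A difference in response between the genes was therefore not shown, although their fold changes were ordered. The sizes moved with the processing and with single pairs of arrays, and no exact permutation p was under 0.05. With 1 pair left out of 1 group, CRR41 over NDHS ran from -0.99 (without hcf145 arrays 1 and 2) to -0.53 (without hcf145 arrays 5 and 6). NDHN over NDHS ran from -0.63 (without hcf145 arrays 1 and 2) to -0.22 (without hcf145 arrays 3 and 4). CRR41 over NDHN ran from -0.49 (without hcf145 arrays 9 and 10) to -0.05 (without hcf145 arrays 7 and 8), and was -0.19 without hcf145 arrays 5 and 6, -0.14 without WT arrays 3 and 4 and -0.47 without WT arrays 9 and 10. On quantile-normalised values the 3 differences were -0.59, -0.23 and -0.36. Without arrays 9 and 10 of both groups they were -1.12, -0.46 and -0.66.

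**Figure D2:**
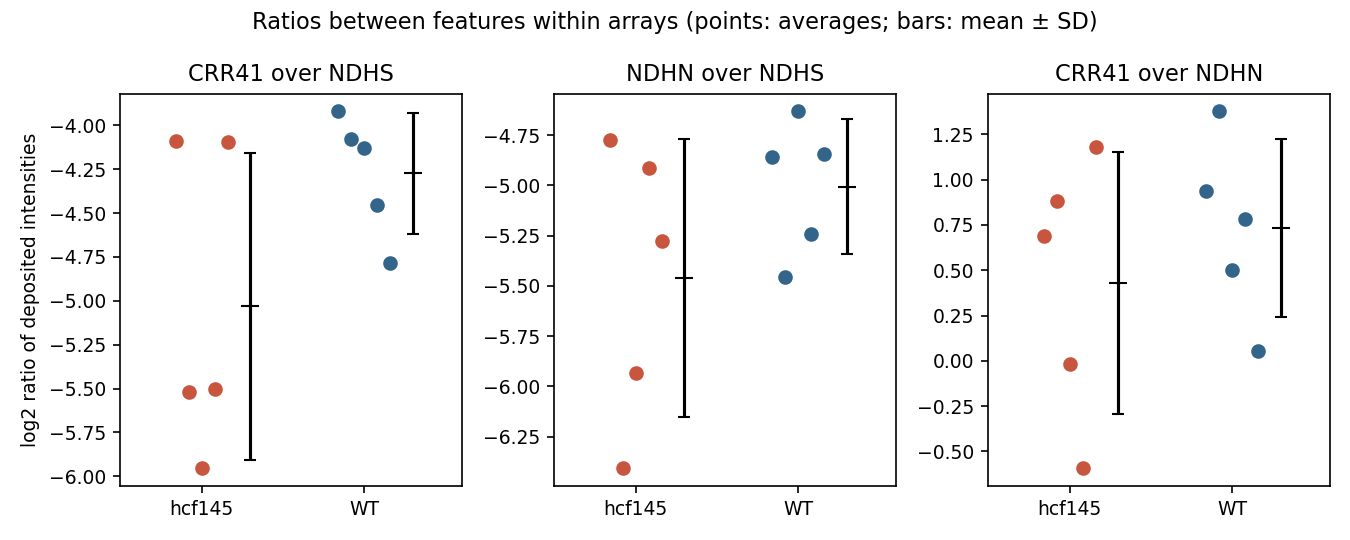
Log2 ratio of deposited intensities (vertical axes) for each pair of features, with 5 averages of adjacent arrays per group as points and the mean ± SD as bars, hcf145 left of WT. For CRR41 over NDHS, 3 of 5 hcf145 averages lie below all WT averages and the other 2 lie inside the WT range. The count is a description: the ratios were added after values had been seen, and no share over other pairs of features is given.

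Over the 20 arrays, as deviations from the group means, Pearson's r was 0.43 between NDHN and NDHS, 0.41 between CRR41 and NDHN and 0.17 between CRR41 and NDHS. Over the 16 arrays without 9 and 10 it was 0.48, 0.61 and 0.66 for the same pairs. These are descriptions: adjacent arrays share deviations, and all features of an array share its hybridisation and scaling. Among 543 other single-gene features with 20 values, those most like NDHS were AT1G51080 (r = 0.95), AT2G46050 (0.92) and AT4G32060 (0.90), with values of 0.71, 0.58 and 0.52 without arrays 9 and 10. Those most like NDHN were AT5G06930 (r = 0.86), AT2G30100 (0.83) and AT3G47650 (0.80), at 0.84, 0.87 and 0.85 without these arrays. Those most like CRR41 were AT1G58230 (r = 0.80), AT3G50130 (0.78) and AT1G62150 (0.75), at 0.82, 0.81 and 0.82 without them. With each pair of array numbers left out of both groups in turn, the lowest r of the NDHS features was that without arrays 9 and 10. The NDHN features had their lowest r without arrays 1 and 2, at 0.76, 0.70 and 0.67. Of the CRR41 features, AT3G50130 dropped to 0.49 without arrays 1 and 2, and AT1G58230 and AT1G62150 had lowest values of 0.72 and 0.70.

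The wider NDH machinery was thinly covered. Lists of its subunits, photosystem I linkers, assembly factors and the RNA-binding proteins that process plastid ndh transcripts held 52 genes, and for 6 of them a tested feature had that gene alone. The 6 were the 3 genes above, the chaperonin CPN60B4, and the pentatricopeptide repeat proteins CRR21 and OTP85, which are needed for editing of plastid ndhD transcripts. No plastid-encoded ndh gene and none of the 12 listed genes of the subcomplex B, the lumen subcomplex and the linkers was the sole gene of a feature. In limma on the averages, 1 of 6 was lower in hcf145 and 0 of 6 higher, where 3.83% of all features were lower. With 20 arrays counted separately, 2 of 6 were lower, where 15.9% of all features were. The median log2 fold change of the 6 was -0.41, beside -0.06 over all features tested. The sign was negative for 6 of 6, against 53.7% of all features tested. NDHS at -0.02 and CPN60B4 at -0.03 were nevertheless not below the median of all features, and 3 of the 6 were the genes of this report. These genes and the lists were chosen with earlier results of these data known, so the comparison with all features is a description. The count of negative signs did not hold in every setting. NDHS was positive with median centring, and both NDHS and NDHN were positive without arrays 9 and 10 of both groups.

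The gene that fell was CRR21 (AT5G55740). It had intensities of 0.202 to 0.685 (median 0.443) on the hcf145 arrays and of 0.666 to 2.46 (median 0.814) on the WT arrays, with little overlap, and the log2 fold change was -0.92 ± 0.25 (SE, limma adjusted p = 0.0440). This call was close to the threshold: 15 of 30 fits that left out 1 array or 1 adjacent pair kept it, with adjusted p between 0.0396 and 0.102, and with adjacent arrays as a random block it was lost (limma adjusted p = 0.134). OTP85 (AT2G02980) had 0.212 to 0.558 (median 0.341) in hcf145 and 0.350 to 1.10 (median 0.666) in WT, and its log2 fold change was -0.57 ± 0.27 (SE, limma adjusted p = 0.213). It passed in 3 of 13 other settings and in 0 of the 30 fits that left out 1 array or 1 adjacent pair. The 3 were 20 arrays counted separately (limma adjusted p = 0.0263), these as deposited (0.00596), and averages as deposited without arrays 9 and 10 (0.0397). CPN60B4 (AT1G26230), a chaperonin subunit that folds the NDH subunit NDHH, had 0.0438 to 0.392 (median 0.169) in hcf145 and 0.148 to 0.366 (median 0.227) in WT, and its log2 fold change was -0.03 ± 0.39 (SE, limma adjusted p = 0.963).

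**Figure D3:**
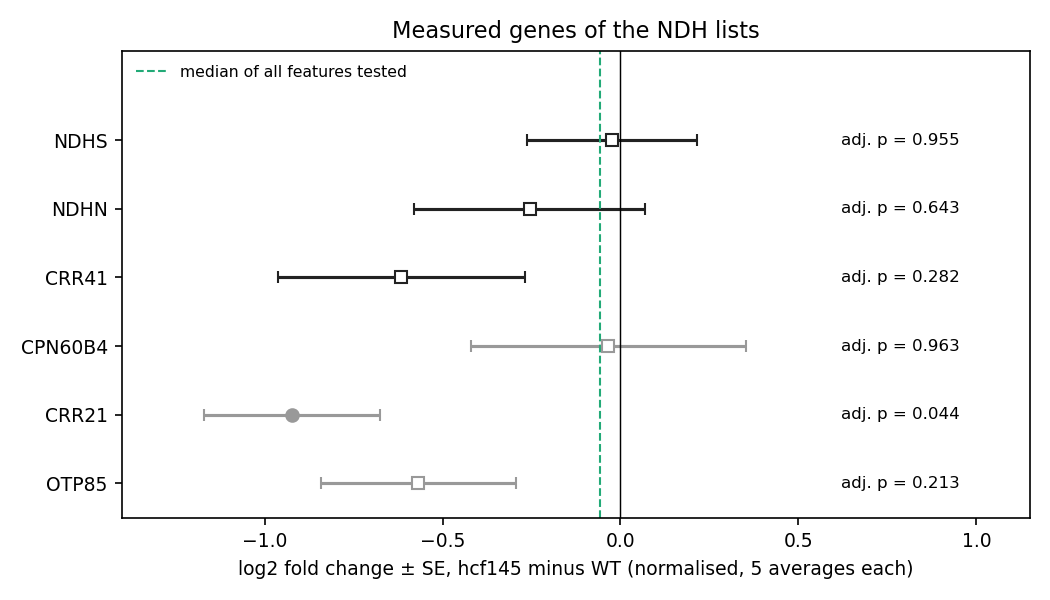
Log2 fold change, hcf145 minus WT, with its SE (horizontal axis, normalised values, 5 averages per group) for the 6 measured genes of the NDH lists. The 3 NDH genes are in black, the filled point (CRR21, -0.92) passed an adjusted p of 0.05, and the dashed line is the median of all features, -0.06.

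Photosystem I, the complex that NDH binds and that the labels name as defective, was represented by 1 of its 12 listed subunits, PSAN, which was lower in hcf145 (log2 fold change -0.95 ± 0.19 SE, limma adjusted p = 0.0197) in the same fit in which NDHS, NDHN and CRR41 did not pass. Whether the NDH genes differ from PSAN was not tested. No gene of the list of other cyclic and chlororespiratory routes (PGR5, PGRL1A, PGRL1B, PTOX and NDC1) was the sole gene of a feature, nor was any of the 4 listed seed storage markers.

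Over the ways of processing tried, the log2 fold change of CRR41 ran from -1.07 to -0.41, that of NDHN from -0.59 to 0.0128 and that of NDHS from -0.14 to 0.16. CRR41 passed in 1 of them, with 20 arrays counted separately and values as deposited (limma adjusted p = 0.0141).

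**Figure D4:**
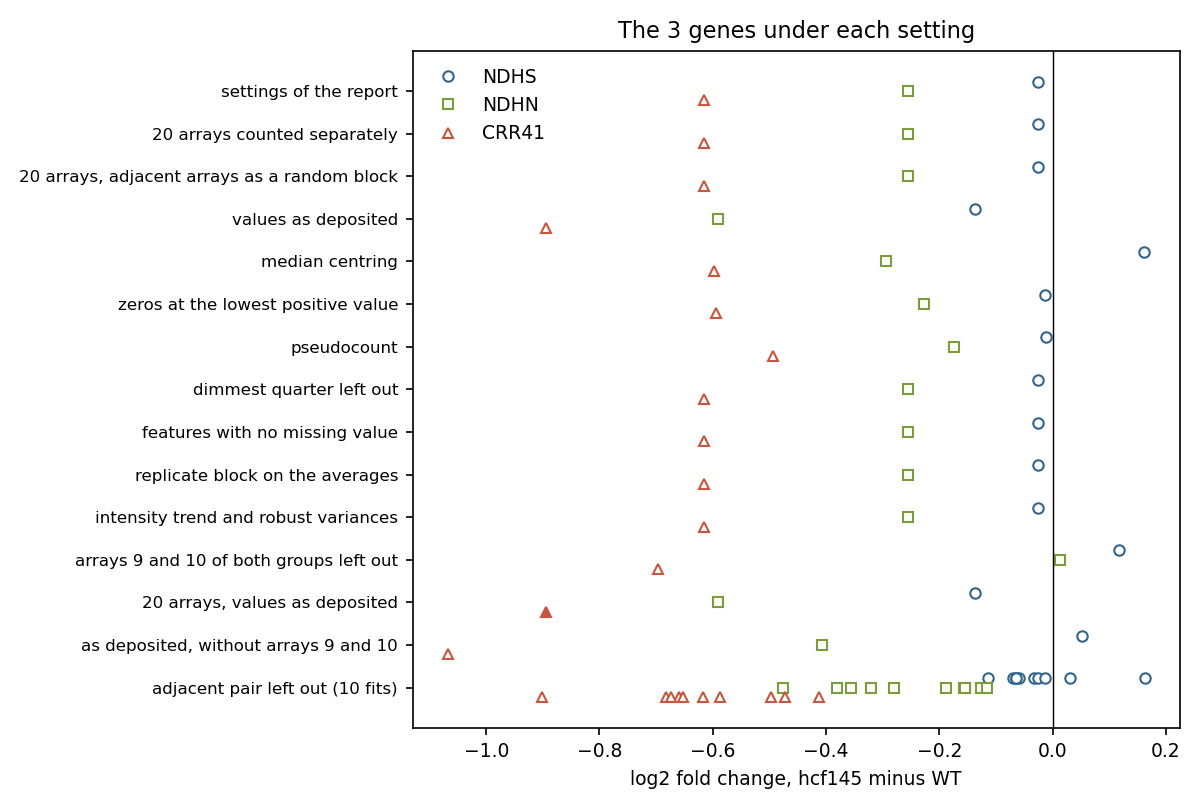
Log2 fold change, hcf145 minus WT (horizontal axis), of NDHS, NDHN and CRR41 under each way of processing (rows); open symbols did not pass an adjusted p of 0.05 in limma and the filled symbol did. CRR41 stays left of 0 throughout, from -1.07 to -0.41, while NDHS lies on both sides of it.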

How the data were processed

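The table deposited by the authors holds linear intensity values for 20 arrays. No label names the unit, which was inferred from the numbers, and quantification, background treatment and scaling are not given in the sources used here. Features were named from the platform annotation (692 with 1 gene, 870 with several, 1877 with none), with symbols from RefSeq TAIR10.1 by gene ID (690 of 692 matched). Genome coordinates and sequences were not used here.

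Zeros were set missing, values taken to log2 and quantile normalised over 20 arrays, and a feature needed at least 5 values in each group. Adjacent array numbers were then averaged and tested with limma (version 3.58.1, R 4.3.3), group as the only term, two-sided, with Benjamini-Hochberg adjustment over 3287 features at 0.05. The pipeline was tested on simulated data. Single values were also compared by exact permutation of the averages.

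Groups and array numbers came from the titles. Same-numbered arrays of the 2 groups had correlated deviations of 0.09 to 0.43, not above 0.1 for every number, so numbers were not taken to pair samples. Named genes were the 3 genes, every measured gene of the lists, and the 3 features most like each. The members and lists were chosen with earlier results of these data known, and the ratios, spread comparison and counts of separated arrays were added after values had been seen. Alternatives concerned scaling, zeros, filters, variance model, arrays counted and arrays left out.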

Additional observations from a re-analysis of the deposited data

Results flagged for a closer look

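In 12 groups of values (3 genes, 2 groups, by arrays and by averages), 1 value stood far from the others. NDHS in the average of hcf145 arrays 9 and 10 was at 2.72 on the normalised log2 scale, and the other hcf145 averages lay between 3.51 and 3.80. Chance flags about 5% of such groups. The single arrays 9 and 10 did not stand out by the same measure, because each has the other close to it.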

How the results depend on the processing

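None of the 3 genes passed in the 30 fits that left out 1 array or 1 adjacent pair, nor in 12 of the 13 other settings. CRR41 passed with 20 arrays counted separately and values as deposited, added after the data were seen (-0.89, limma adjusted p = 0.0141), and was negative throughout. NDHS was positive with median centring (0.16), without arrays 9 and 10 of both groups (0.12, or 0.0525 as deposited), and in 3 of the 30 fits, which ran from -0.11 to 0.16. NDHN was positive without arrays 9 and 10 of both groups (0.0128), but -0.41 without them as deposited. The cause was not tested.

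The 243 features past the threshold became 956 with 20 arrays counted separately, 1179 with these as deposited, 425 with adjacent arrays as a random block, and 722 as deposited without arrays 9 and 10. With the pair number as a replicate block there were 500, and the block changed no call of the 3 genes. The limma adjusted p of CRR41 was 0.112 with the block and 0.282 without it. Leaving out 1 array or pair gave 47 to 261, and fell by over 1.5 times without hcf145 arrays 3 and 4, 5 and 6 or 7 and 8, or WT arrays 1 and 2, 3 and 4, 5 and 6 or 7 and 8.

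Of the 6 NDH list genes, 1 passed (CRR21), where 7.39% of all features did. The count was 2 with 20 arrays, 3 with these as deposited, 2 as deposited without arrays 9 and 10, and 0 with the random block, median centring, zeros at the lowest positive value or without arrays 9 and 10. Of all features, 956 of 3287 passed with 20 arrays, 1179 of 3287 with these as deposited, and 722 of 3233 as deposited without arrays 9 and 10. Leaving out 1 array or pair gave a list count of 0 to 1. It was 0 without hcf145 array 1, 3, 5, 8 or 10, WT array 3, or any pair other than hcf145 arrays 1 and 2.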
